A study of Mus musculus with 107 samples.

Results

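Macrophage markers were followed in bulk RNA-seq of 12 mouse syngeneic tumor models, as the 10 rows of the deposited expression table, out of 50686 genes, that carry the symbols Adgre1, Csf1r, Mertk, C1qa, C1qb, Folr2, Lyve1, Cd163, Mrc1 and Csf1. The first 5 were treated as general macrophage markers, the next 4 as markers of resident-like macrophages, and Csf1 as the ligand that these cells depend on. Each model was a mouse cancer cell line implanted under the flank skin of mice aged 7 weeks. Base denotes treatment-naive tumors taken at about 100 mm3, NT denotes untreated tumors taken on day 8, and LEN denotes tumors taken on day 8 after 7 days of oral lenvatinib at 10 mg/kg once daily. Lenvatinib is a kinase inhibitor that blocks vascular endothelial growth factor receptors, among other receptors. BNL 1ME A.7R.1 (BNL below), Renca, RAG, CT26.WT, 4T1 and EMT6 were grown in BALB/cAnNCrlCrlj mice, MC38 and B16-F10 in C57BL/6NCrl, LL/2 in C57BL/6JCrl, Hepa 1-6 in C57L/J, KLN205 in DBA/2NCrl and MBT2 in C3H/HeNCrl. By the study's methods, BNL and Hepa 1-6 were grown in male mice and the other models in female mice, and the RAG cells had been adapted in vivo. Each model is 1 cell line in 1 host strain, so that cell line, strain and, for the liver models, sex cannot be told apart. Every group held 3 tumors, except Base MC38 with 2, which gave 35 Base, 36 NT and 36 LEN tumors.

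Macrophages enter a tumor from blood monocytes or persist from the tissue around it. Signaling of Csf1 through its receptor Csf1r keeps most of them alive, and they clear dying cells through receptors such as Mertk and through the complement protein C1q. Resident-like macrophages, which often lie along vessels and in connective tissue, are recognized by the folate receptor Folr2, the hyaluronan receptor Lyve1, the hemoglobin scavenger receptor Cd163 and the mannose receptor Mrc1. Lyve1 and Mrc1 are also made by some endothelial cells, lymphatic endothelium in the case of Lyve1.

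Values are TPM (transcripts relative to a fixed total that is the same in every tumor, after division by gene length). The number of reads behind a value cannot be recovered from TPM, and the depth is therefore unknown. Protein-coding genes took 37.1% to 66.6% of the TPM of a tumor, except in 1 LEN tumor of 4T1 (replicate 4), where they took 27.5% and Gm26917 alone took 24.2%. In bulk tumors, fewer macrophages and less RNA of a gene per macrophage cannot be told apart. The leukocyte gene Ptprc was detected in every tumor at 2.61 to 129 TPM, and the macrophage gene Cd68 at 5.77 to 439 TPM. Nothing in the labels says more of the replicates than that they are separate tumors, and the p-values measure the spread between these tumors.

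The upstream sequences of 3 resident-like markers that fell between Base and day 8 are given beside that of C1qb, a general marker that showed no call there. Upstream windows from RefSeq (GRCm38.p6) matched 6 of the 10 genes, and the 250 bases before the start site are shown in lower case, 5′ to 3′ along the gene. Capitals mark GAGGAA or its reverse complement TTCCTC, the core letters bound by PU.1, the factor that specifies myeloid cells. Folr2 has 2 annotated starts.
Mrc1 (chr2:14229164-14229413, plus strand): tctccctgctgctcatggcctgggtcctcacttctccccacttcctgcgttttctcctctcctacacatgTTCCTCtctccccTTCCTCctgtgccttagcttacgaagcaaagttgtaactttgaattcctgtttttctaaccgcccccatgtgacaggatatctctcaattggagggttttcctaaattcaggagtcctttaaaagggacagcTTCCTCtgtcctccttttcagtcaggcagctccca
Cd163 (chr6:124304401-124304650, plus strand): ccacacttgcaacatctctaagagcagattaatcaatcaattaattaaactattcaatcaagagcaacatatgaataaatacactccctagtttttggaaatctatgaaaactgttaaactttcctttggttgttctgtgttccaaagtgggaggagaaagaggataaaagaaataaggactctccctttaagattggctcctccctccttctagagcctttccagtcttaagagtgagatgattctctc
Folr2, first start (chr7:101857191-101857440, minus strand): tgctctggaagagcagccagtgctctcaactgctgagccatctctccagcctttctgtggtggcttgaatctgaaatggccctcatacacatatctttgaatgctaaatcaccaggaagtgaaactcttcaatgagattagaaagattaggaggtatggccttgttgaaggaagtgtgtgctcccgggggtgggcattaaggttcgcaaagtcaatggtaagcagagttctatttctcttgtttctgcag
Folr2, second start (chr7:101845332-101845581, minus strand): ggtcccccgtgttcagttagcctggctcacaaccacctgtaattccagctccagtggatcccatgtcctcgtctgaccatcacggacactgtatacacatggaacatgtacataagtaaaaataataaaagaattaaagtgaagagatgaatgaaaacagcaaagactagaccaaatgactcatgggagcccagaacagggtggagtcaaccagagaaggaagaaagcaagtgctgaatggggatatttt
C1qb (chr4:136886201-136886450, minus strand): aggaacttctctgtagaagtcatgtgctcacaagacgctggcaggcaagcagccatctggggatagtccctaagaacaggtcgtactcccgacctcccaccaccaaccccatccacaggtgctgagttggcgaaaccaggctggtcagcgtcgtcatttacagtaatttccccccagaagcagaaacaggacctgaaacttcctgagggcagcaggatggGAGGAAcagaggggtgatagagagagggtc
The Mrc1 window held 3 such matches, which began at -180, -167 and -35 from the start site, and the C1qb window held 1, at -30. The windows of Cd163, Folr2, Mertk and Csf1 held 0. Over 32851 RefSeq windows of the same length, 23.3% held at least 1 match. The letters TGCTGA or TCAGCA, core letters of the recognition element of MAF, a factor of resident macrophages, were found once in the C1qb window and once in each Folr2 window, and in 16.1% of all windows.

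In Base tumors, the general markers were lowest in B16-F10, except for Mertk, and highest in Hepa 1-6, MBT2 or Renca. C1qa and C1qb, 2 of the 3 chains of C1q, were the most abundant members, with medians over models of 186 and 165 TPM. C1qa (chromosome 4, 136895917 to 136898803, minus strand, 3 exons) was at 330, 284 and 371 TPM in the Hepa 1-6 tumors and at 49.5, 36.8 and 52.6 TPM in the B16-F10 tumors. These groups lay far apart, 7.09-fold in the mean. C1qb, its neighbor on the same strand (136880129 to 136886187, 3 exons), spanned 6.20-fold between the same models. Adgre1, which encodes the F4/80 antigen (chromosome 17, 57358691 to 57483527, plus strand, 22 exons), was at 33.8 ± 2.14 TPM in MBT2 and 7.54 ± 1.09 TPM in B16-F10 (SD, n = 3 each). In the order of its 12 Base levels, all 11 pairs of neighboring models overlapped, so that the order of Adgre1 is one of extremes rather than of steps.

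Csf1r, the receptor for Csf1 (chromosome 18, 61100598 to 61132149, plus strand, 21 exons), spanned the widest range of the general markers in Base tumors. It was at 107.2, 117.7 and 114.7 TPM in Renca and at 12.6, 8.34 and 10.6 TPM in B16-F10, a 10.8-fold difference. Mertk, a receptor for the uptake of apoptotic cells (chromosome 2, 128698956 to 128802894, plus strand, 19 exons), was the lowest general marker, with a median over models of 3.90 TPM. It ranged from 2.47 ± 0.181 TPM in BNL to 12.9 ± 4.70 TPM in Hepa 1-6 (SD, n = 3 each). Annotated genes on the opposite strand overlap Csf1r (Hmgxb3), Mertk (Gm14011) and Folr2 (Gm10602 and Gm45319), and the use of strand in the counting is not given in the sources used here.

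The resident-like markers followed other orders of models. Cd163 (chromosome 6, 124304656 to 124330527, plus strand, 17 exons) showed the widest range of all members, 33.0-fold. It was at 66.6, 28.7 and 111 TPM in 4T1 and at 1.85, 2.22 and 2.18 TPM in RAG, and the EMT6 tumors held 20.6, 19.4 and 68.7 TPM. The other models had means of at most 14.8 TPM. Lyve1 (chromosome 7, 110850607 to 110863239, minus strand, 6 exons) was the least abundant member, with a median over models of 2.64 TPM. It reached 14.4 ± 8.24 TPM in EMT6 and 0.870 ± 0.512 TPM in RAG (SD, n = 3 each), and no pair of neighboring models was apart. Folr2 (chromosome 7, 101839988 to 101857194, minus strand, 5 exons) was highest in MBT2, at 44.7, 48.5 and 40.0 TPM, and lowest in KLN205, at 7.09, 5.56 and 4.86 TPM. Mrc1 (chromosome 2, 14229392 to 14332057, plus strand, 30 exons) was highest in Renca, at 101, 125 and 115 TPM, and lowest in MC38, where the 2 tumors held 9.71 and 18.7 TPM. Renca was thus the model with the highest Mrc1 but among the lowest for Lyve1, which was at 0.310, 2.64 and 0.530 TPM there.

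Csf1 (chromosome 3, 107741048 to 107760469, minus strand, 9 exons) separated the models more cleanly than its receptor. It was at 136, 141 and 137 TPM in EMT6, at 134, 141 and 125 TPM in MBT2 and at 12.1, 9.28 and 9.10 TPM in B16-F10. Of its 11 pairs of neighboring models, 5 did not overlap. All 10 members differed between the Base models in the limma F test, with adjusted p from 2.04e-15 for Csf1 to 7.86e-07 for Lyve1. This is not a result about macrophages as such, since 93.6% of all genes tested differed between the Base models by the same rule.

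**Figure D1:**
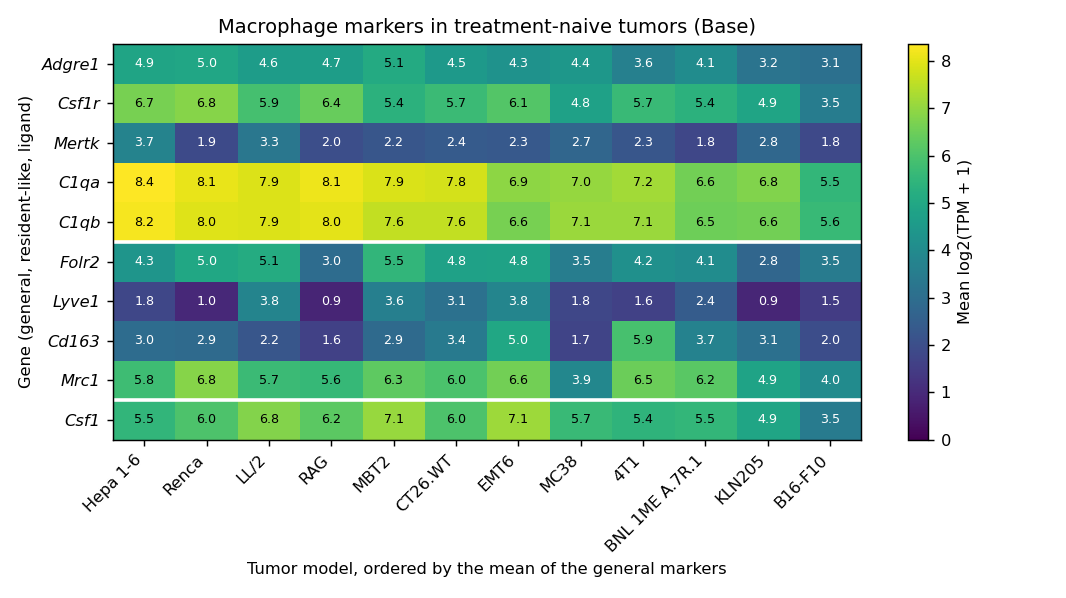
Mean log2(TPM + 1) of the 10 members (rows: general, resident-like and ligand, divided by white lines) in the Base tumors of the 12 models (columns), each cell the mean of 3 tumors, or 2 for MC38. The rows of C1qa and C1qb are the highest, the column of B16-F10 is among the lowest for most genes, and Cd163 stands out in 4T1 and EMT6.

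The general markers varied together between the models and the resident-like markers less so. Over the 12 Base means of log2(TPM + 1), Pearson's r was 0.99 for C1qa with C1qb, and its median was 0.77 over the 10 pairs of general markers (0.22 to 0.99). Mertk gave the low values, with r of 0.22 with Adgre1 and 0.23 with Csf1r. The median r was 0.47 over the 6 pairs of resident-like markers (0.24 to 0.74) and 0.20 over the 20 pairs of a general with a resident-like marker (-0.21 to 0.75). Folr2 with Lyve1 gave 0.74, Csf1r with Mrc1 gave 0.75, and Cd163 with Adgre1 gave -0.21. Csf1 correlated with its receptor at 0.65. These values are descriptions over 12 models that share library preparation and scaling to a common total. The same grouping appeared in the deviations of all tumors from their group means, with median r of 0.82 within the general markers, 0.62 within the resident-like markers and 0.33 between them.

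The genes most like each class over the 36 group means were also known macrophage genes in part. For the mean of the resident-like markers, the highest Pearson's r among 17418 genes was found for F13a1 (0.84), which encodes a subunit of coagulation factor XIII and is made by tissue macrophages. It was followed by Nxpe5 (0.84), the scavenger receptor gene Stab1 (0.81), Susd3 (0.81) and Gm37474 (0.80). For the mean of the general markers, C1qc (0.97), which encodes the remaining chain of C1q, was first. It was followed by the Fc receptor gene Fcgr3 (0.94), Tnfaip8l2 (0.93), the lysosomal gene Laptm5 (0.93) and Fermt3 (0.91).

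Between the Base tumors and the NT tumors of day 8, 3 of the 4 resident-like markers fell and the 5 general markers did not pass the test in either direction. Base and NT tumors are separate sets, taken at a set size and on day 8, and growth cannot be told apart from other differences between the sets. Cd163 fell by 0.95 on the log2(TPM + 1) scale in the mean over models (SE 0.13, adjusted p = 3.26e-07), with a lower level in 11 of 12 models. Folr2 fell by 0.47 (SE 0.094, adjusted p = 0.000157) and Mrc1 fell by 0.44 (SE 0.096, adjusted p = 0.000437), each lower in 8 of 12 models. With the summed levels of muscle and adipocyte genes as covariates, Folr2 (adjusted p = 0.0670) and Mrc1 (adjusted p = 0.0694) lost their calls. Lyve1 changed by -0.42 (SE 0.17, adjusted p = 0.0602) and missed the threshold, although it was lower in 9 of 12 models. It passed without 4T1 (-0.47, adjusted p = 0.0344), without MBT2 (-0.48, adjusted p = 0.0404) and when any 1 of 8 single tumors was left out. The mean changes of the 5 general markers lay between -0.08 for Csf1r and 0.06 for C1qa, with adjusted p from 0.364 to 0.881, and that of Csf1 was -0.07 (adjusted p = 0.244). C1qa and C1qb changed sign under other scalings, and without BNL Csf1r fell by 0.22 (adjusted p = 0.0163). Thus 3 of 10 members were lower and 0 were higher, where 11.5% of 17428 genes were lower and 17.0% were higher by the same limma test with Benjamini-Hochberg adjustment. Of all called genes 59.7% were higher, which became 28.7% with upper-quartile scaling and 23.7% with scaling to protein-coding genes, and Lyve1 and Csf1 then joined the lower members. At an unadjusted p under 0.05, Lyve1 joined the lower members and no member was higher. A fold change on this scale understates the change of genes of low TPM.

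The fall of Cd163 was visible in single tumors. In 4T1 it went from 66.6, 28.7 and 111 TPM in Base tumors to 15.7, 28.1 and 11 TPM in NT tumors. In EMT6 it went from 20.6, 19.4 and 68.7 TPM to 2.81, 3.23 and 8.71 TPM. In B16-F10 it went from 3.31, 2.22 and 3.24 TPM to 0.0900, 0.200 and 0.190 TPM. In these 3 models every NT tumor was below every Base tumor, as it was in Hepa 1-6, MBT2, MC38 and Renca. In LL/2, the exception, Cd163 was at 4.93, 2.69 and 3.81 TPM in Base and at 3.88, 3.29 and 4.96 TPM in NT tumors, and the groups overlapped.

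Folr2 and Mrc1 fell in some models and were higher in others. In EMT6, Mrc1 was at 73.3, 72.7 and 154 TPM in Base and 20.0, 28.5 and 51.2 TPM in NT tumors. In B16-F10 it was at 18.1, 13.3 and 15.1 TPM in Base and 3.15, 4.52 and 2.96 TPM in NT tumors. In MBT2 the order was turned, with 79.5, 76.4 and 76.0 TPM in Base and 135, 132 and 91.9 TPM in NT tumors, again without overlap. Folr2 moved the same way in MBT2, from 44.7, 48.5 and 40.0 TPM to 75.0, 75.8 and 52.4 TPM. The change between Base and NT differed between models for 9 of 10 members in the F test of 11 contrasts, all but Lyve1 (adjusted p = 0.490), where 66.5% of all genes differed.

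The near-zero means of the general markers hid changes of opposite sign. In BNL, C1qa was at 73.5, 123 and 95.8 TPM in Base and 284, 282 and 274 TPM in NT tumors, and Csf1r was at 30.5, 43.4 and 49.2 TPM in Base and 99.8, 114 and 111 TPM in NT tumors. In Hepa 1-6, C1qa was at 330, 284 and 371 TPM in Base and 161, 129 and 233 TPM in NT tumors. Fitted within single models, 117 of the 120 pairs of a member and a model could be tested. Of these, 16 were lower and 8 were higher in NT tumors, where 1.69% and 6.33% of all such pairs were. The higher calls were 6 members in BNL (Adgre1, Csf1r, Mertk, C1qa, C1qb and Folr2), Adgre1 in KLN205 and Mertk in LL/2. In these models 23.6%, 28.3% and 3.69% of all genes tested were higher. The share of TPM in protein-coding genes also rose without overlap in BNL (45.25% to 48.97% in Base and 54.28% to 57.36% in NT tumors), KLN205 (39.60% to 42.31% and 50.73% to 52.68%) and EMT6 (43.52% to 45.88% and 57.24% to 60.98%), as it did in 4T1, and it fell without overlap in CT26.WT and Hepa 1-6. Its part in these calls was not tested. The lower calls were 4 each in B16-F10, EMT6, LL/2 and Renca, and Folr2 was among them in all 4 of these models, where 0.641%, 4.51%, 2.02% and 7.08% of all genes were lower. By tumors alone, NT lay wholly below Base in 42 of 120 pairs (35%) and wholly above in 24 (20.0%), against 13.7% and 15.8% of all gene-model pairs. Members that share cells, such as C1qa and C1qb, are not independent in these counts.

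Genes of several other cell types fell with the resident-like markers between Base and day 8, where 11.5% of all genes tested fell and 17.0% rose. All 4 pan-leukocyte genes, 7 of 8 monocyte genes (median -0.64) and 7 of 15 pan-macrophage genes fell, and 1 pan-macrophage gene rose. All 4 skeletal muscle genes (Ckm, Acta1, Myh4 and Mylpf) fell, with a median change of -1.28, and their summed level was 1.55 to 554 TPM in Base (median 94.7), 1.25 to 126 TPM in NT (median 28.9) and 1.77 to 1953 TPM in LEN tumors (median 44.9). The 3 adipocyte genes that could be tested fell as well, with Adipoq at -0.82 (adjusted p = 1.44e-06). Of the 6 blood endothelial genes, 5 fell (median -0.22), and their summed level was 41.0 to 189 TPM in Base and 35 to 162 TPM in NT tumors. Of 4 lymphatic endothelial genes tested, 1 fell. The 5 dendritic cell genes tested all fell (median -0.32), with summed levels of 8.11 to 43.9 TPM in Base and 4.34 to 31.6 TPM in NT tumors, as did 2 of 4 fibroblast genes, Dcn among them at -0.65 (adjusted p = 5.68e-06). The part of the pan-leukocyte, monocyte, pan-macrophage, endothelial, dendritic cell and fibroblast genes was not tested. With the summed levels of the muscle and adipocyte lists as covariates, an alternative added after seeing the data, Cd163 remained lower (-0.73, adjusted p = 0.0110), with Folr2 at -0.39 and Mrc1 at -0.41.

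After LEN, the 5 general markers and 3 of the 4 resident-like markers were lower than in the NT tumors of the same day. In the mean over the 12 models, 8 of 10 members fell and 0 rose in the limma test, where 9.87% of 17351 genes fell and 13.7% rose. At an unadjusted p under 0.05, Cd163 joined the lower members and 1 member was higher (Csf1). Of all called genes 58.1% were higher, against 41.9% with upper-quartile scaling and 47.4% with scaling to protein-coding genes, and the same 8 members fell under both. All 5 general markers fell. Csf1r fell by 0.45 (SE 0.063, adjusted p = 1.36e-07, lower in 10 of 12 models), C1qa fell by 0.39 (SE 0.065, adjusted p = 6.80e-06), C1qb fell by 0.38 (SE 0.067, adjusted p = 1.41e-05), Adgre1 fell by 0.37 (SE 0.072, adjusted p = 8.57e-05) and Mertk fell by 0.22 (SE 0.057, adjusted p = 0.00212), the last 4 lower in 8 of 12 models each. Among the resident-like markers, Lyve1 fell by 0.62 (SE 0.15, adjusted p = 0.00120, lower in 9), Mrc1 fell by 0.53 (SE 0.090, adjusted p = 8.59e-06, lower in 10) and Folr2 fell by 0.38 (SE 0.091, adjusted p = 0.00108, lower in 9). Cd163 changed by -0.23 (SE 0.10, adjusted p = 0.112) and was not called. It passed the test when B16-F10 (-0.34, adjusted p = 0.0284), BNL (-0.30, adjusted p = 0.0362) or Hepa 1-6 (-0.31, adjusted p = 0.0208) was left out, as it did without 1 LEN tumor of BNL (-0.27, adjusted p = 0.0429) or 1 NT tumor of Hepa 1-6 (-0.27, adjusted p = 0.0370). Mertk lost its call without Renca (-0.15, adjusted p = 0.0695), and Lyve1 with the muscle and adipocyte covariates (-0.46, adjusted p = 0.0634). Csf1 changed by 0.11 (SE 0.044, adjusted p = 0.0537), with 6 models higher and 6 lower, and crossed the threshold under several alternatives given in the closing section, among them without the LEN tumor of 4T1 with the low share of protein-coding genes (0.14, adjusted p = 0.00367).

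**Figure D2:**
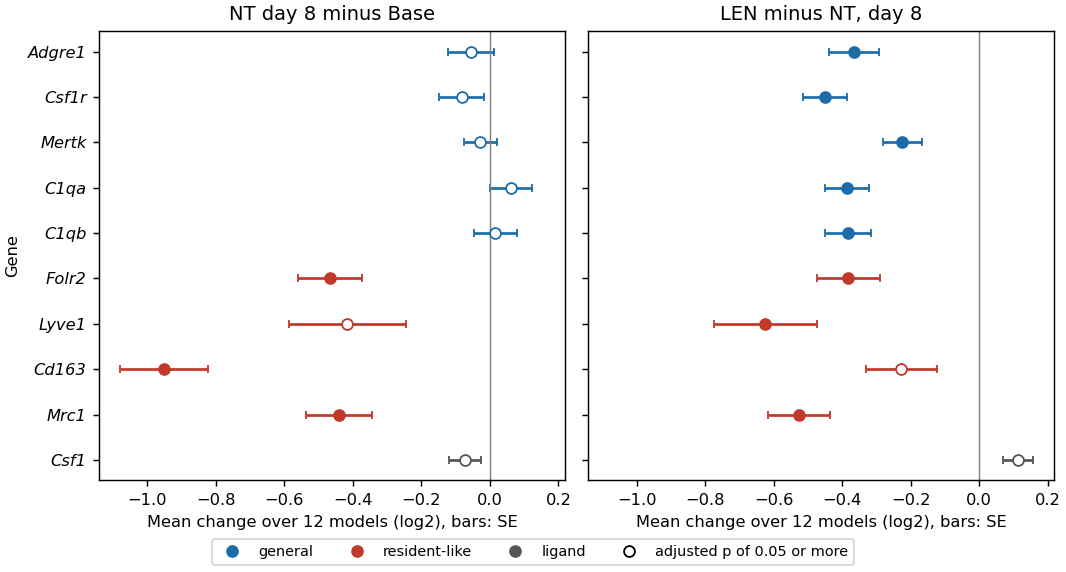
Mean change over the 12 models in log2(TPM + 1), with its SE, of the 10 members between NT and Base (left) and between LEN and NT (right), filled where the adjusted p of limma was under 0.05. On the left the general markers lie between -0.08 and 0.06 and Cd163 lies lowest at -0.95. On the right all markers but Csf1 lie below 0. The panels share the NT tumors.

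This mean effect combined models that moved in opposite directions, and the F test called a difference between models for 9 of 10 members, where it called 35.3% of all genes. Lyve1 was again the exception (adjusted p = 0.0528). The means of all 10 members were lower after LEN in 4T1, CT26.WT, MC38 and Renca, and of these models members were called alone in Renca. In Renca, Csf1r was at 94.0, 78.1 and 90.9 TPM in NT and 31.6, 26.0 and 31.7 TPM in LEN tumors. Mrc1 was at 77.4, 72.1 and 75.4 TPM in NT and 23.2, 21.4 and 19.9 TPM in LEN tumors. Mertk was at 2.09, 2.06 and 2.04 TPM in NT and 0.530, 0.610 and 0.470 TPM in LEN tumors. In the fit of Renca alone, 8 of the 9 members tested fell, by between 1.00 for Mertk and 1.76 for Mrc1, while 7.15% of all genes fell in that model. Csf1, the remaining member, changed by -0.17 and was not called. Lyve1 was under the minimum level in Renca and was not tested.

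B16-F10 showed the opposite. Its NT means were the lowest of the 12 models for 9 of 10 members, with Csf1r at 4.27, 5.18 and 2.83 TPM, and its LEN tumors held 16, 13.9 and 14.1 TPM. C1qa was at 25.4, 26.5 and 18.7 TPM in NT and 88.7, 63.6 and 75.8 TPM in LEN tumors. Folr2 was at 1.55, 3.17 and 2.64 TPM in NT and 8.82, 8.43 and 11.6 TPM in LEN tumors. Of the 9 members tested in B16-F10 alone, 7 rose (Adgre1, Csf1r, C1qa, C1qb, Folr2, Mrc1 and Csf1), by between 1.09 for Csf1 and 1.68 for C1qb, where 8.57% of all genes rose. Mertk and Lyve1 were not called there, with changes of 0.19 and 0.28. Cd163 was under the minimum level in the day 8 tumors and was not tested, with 0.0900, 0.200 and 0.190 TPM in NT and 1.22, 1.37 and 1.2 TPM in LEN tumors. The Csf1r levels after LEN were above the 12.6, 8.34 and 10.6 TPM of the Base tumors of B16-F10, whereas Mrc1 (10.8, 9.60 and 9.08 TPM) and Cd163 were below their Base levels in every LEN tumor and Folr2 overlapped with its Base levels. Leukocyte and muscle genes moved in the same direction in this model. The 4 pan-leukocyte genes summed to 11.8, 25.4 and 11.7 TPM in NT and 80.7, 75.2 and 82.8 TPM in LEN tumors, and the muscle genes to 19.0, 2.44 and 5.36 TPM in NT and 166, 174 and 114 TPM in LEN tumors. The share of TPM in protein-coding genes was also higher without overlap in this model, at 54.61% to 58.41% in NT and 59.06% to 60.62% in LEN tumors. The part of these shifts in the result was not tested.

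Hepa 1-6 was the only other model in which the means of all 10 members were higher after LEN, by between 0.31 for Lyve1 and 0.72 for Cd163, but none was called in that model alone, where 7 of 16561 genes rose. Its Csf1r values of 44.4, 36.1 and 58.9 TPM in NT and 88, 76.9 and 54.1 TPM in LEN tumors overlapped. In LL/2, C1qa (163, 126 and 142 TPM in NT, 53.5, 61.0 and 61.4 TPM in LEN tumors) and C1qb were among the 12 genes that fell in that model alone. In 4T1, CT26.WT, KLN205, MC38, RAG, EMT6 and MBT2, no member was called alone, but in each of the first 4 Csf1r, Adgre1, C1qa and C1qb were lower in every LEN tumor than in every NT tumor. In 4T1 this included the LEN tumor with the low share of protein-coding genes, with Csf1r at 23.9 TPM there, at 51.1 and 36.4 TPM in the other LEN tumors and at 70.85, 71.98 and 81.59 TPM in NT tumors. Csf1 was at 31.1 TPM there, at 60.7 and 55.5 TPM in the other LEN and at 55.3, 59.5 and 64.5 TPM in NT tumors, and its groups overlapped. In CT26.WT, for example, Csf1r was at 36, 33.7 and 41.6 TPM in NT and 16.3, 21.3 and 18.9 TPM in LEN tumors. Over all models, 115 of 120 pairs could be tested in single-model fits. Of these 12 fell and 7 rose, where 1.3% and 3.56% of all pairs did. By tumors alone, LEN lay wholly below NT in 54 of 120 pairs (45%) and wholly above in 13 (10.8%), against 10.6% and 12.7% of all gene-model pairs. With 3 tumors a group, an exact permutation test of 1 gene in 1 model cannot go below p = 0.1.

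**Figure D3:**
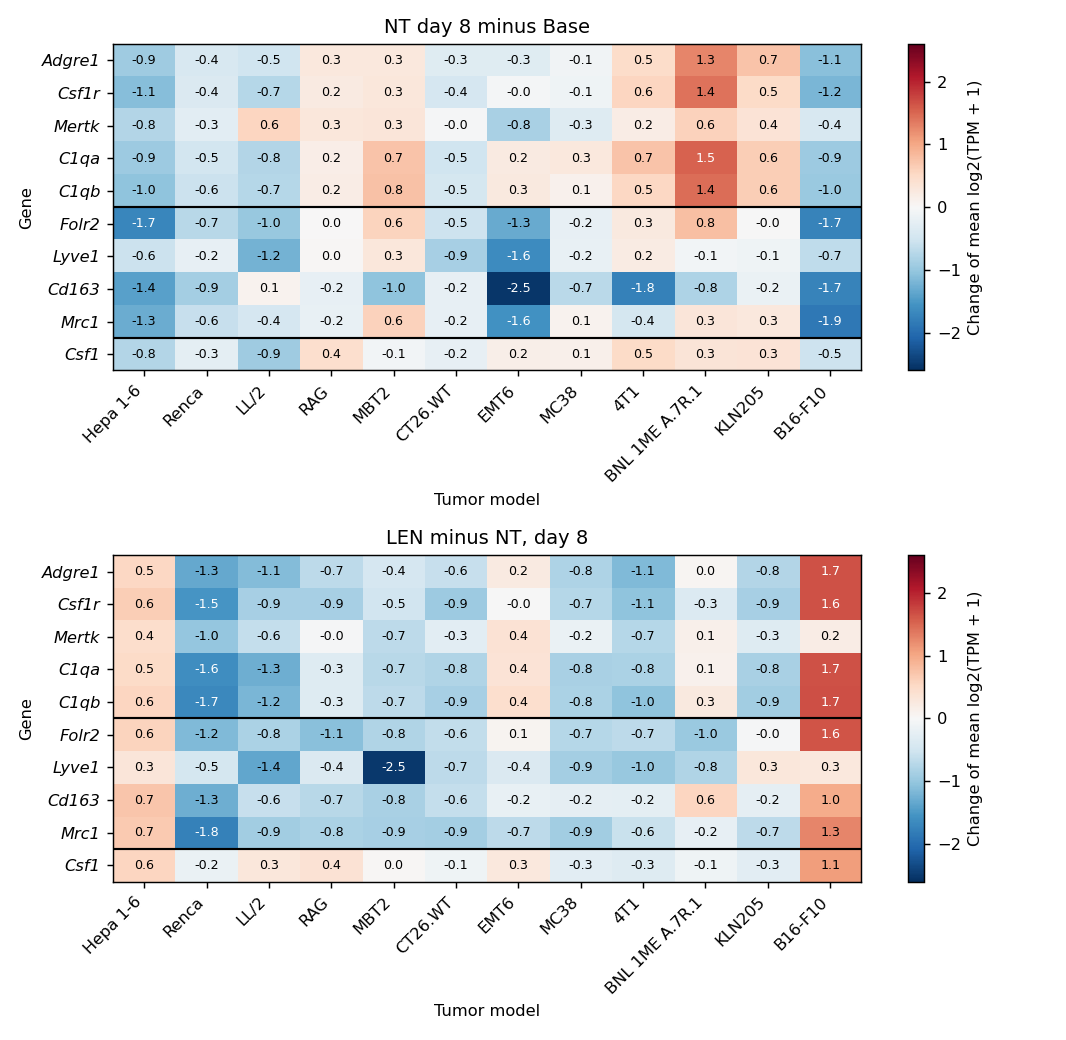
Change of mean log2(TPM + 1) between NT and Base (upper) and between LEN and NT (lower) for each member (rows) in each model (columns, ordered by the Base mean of the general markers), red for higher and blue for lower. In the lower panel the columns of B16-F10 and Hepa 1-6 are red throughout and those of 4T1, CT26.WT, MC38 and Renca are blue throughout. The panels share the NT tumors, so that a high NT value raises the upper and lowers the lower panel.

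In BNL, the members did not move as one after LEN. Folr2 was at 29.5, 27.3 and 26.5 TPM in NT and 14.7, 10.8 and 16.5 TPM in LEN tumors (-0.96, SE 0.15, adjusted p = 0.00345 in BNL alone). Csf1r was at 99.8, 114 and 111 TPM in NT and 85.0, 81.5 and 87.8 TPM in LEN tumors (-0.35, adjusted p = 0.00925). C1qb was at 241, 261 and 246 TPM in NT and 331, 263 and 304 TPM in LEN tumors, without overlap but not called. In BNL alone 5.21% of all genes fell and 26.3% rose. The share of TPM in protein-coding genes rose without overlap after LEN in BNL (54.28% to 57.36% in NT, 60.19% to 61.95% in LEN tumors). It also did so in B16-F10 and in EMT6 (57.24% to 60.98% and 62.84% to 66.59%). In LL/2 it fell without overlap (49.97% to 51.33% and 47.33% to 48.70%). Its part in the calls after LEN was not tested. The muscle genes of BNL summed to 86.2, 97.0 and 33.9 TPM in NT and 1953, 1334 and 1579 TPM in LEN tumors. Its adipocyte genes summed to 2.07, 0.40 and 0.62 TPM in NT and 32.0, 13.3 and 41.3 TPM in LEN tumors. Its monocyte genes summed to 179, 199 and 196 TPM in NT and 328, 316 and 316 TPM in LEN tumors. The pan-leukocyte and dendritic cell sums were also higher without overlap, and the blood endothelial and fibroblast sums were lower without overlap. The part of these cell types in the BNL differences was not tested.

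**Figure D4:**
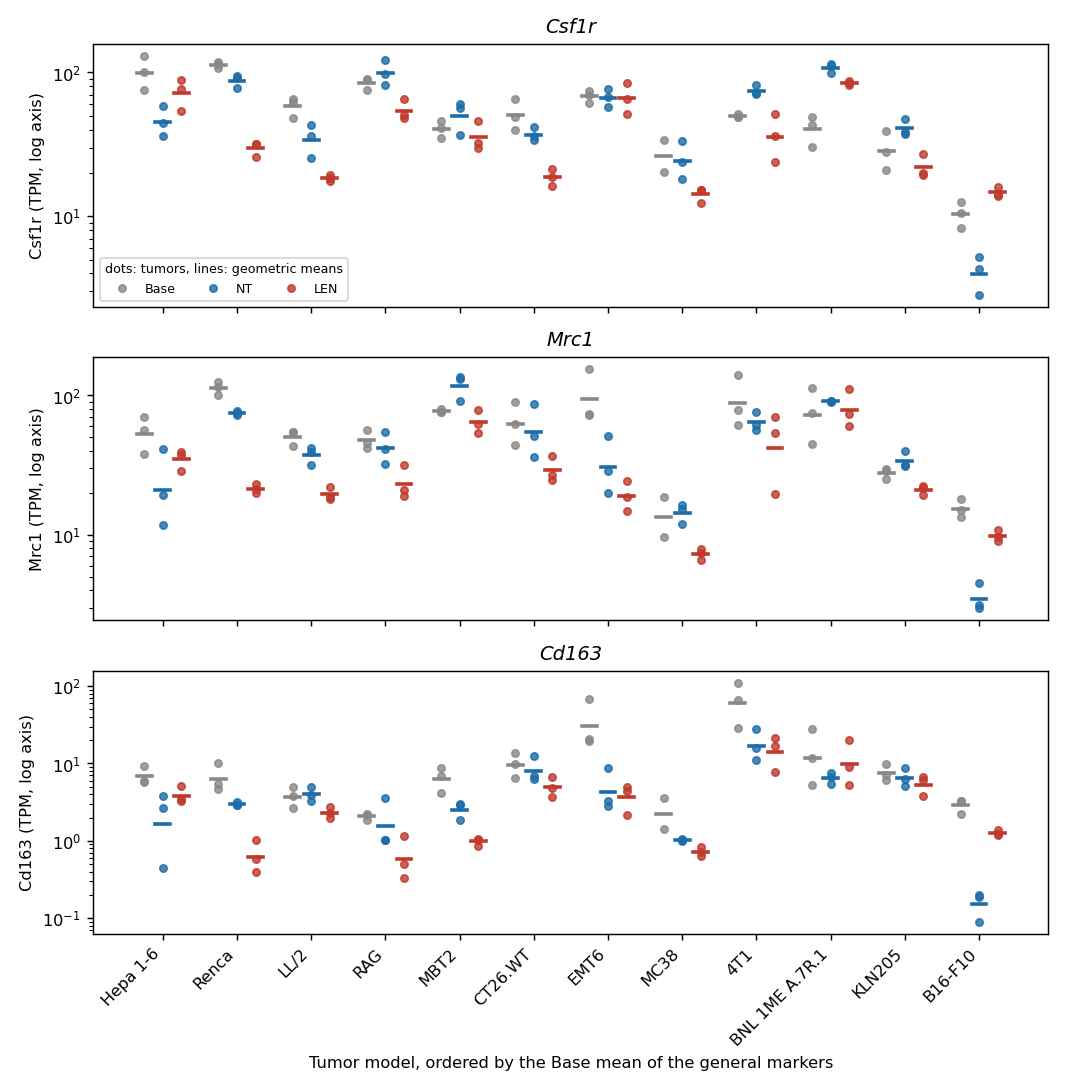
TPM of Csf1r, Mrc1 and Cd163 (log axes) in each Base, NT and LEN tumor (dots) with the geometric mean of the group (lines), models ordered as in the plot of changes by model. The LEN dots of Csf1r lie below the NT dots in 8 models and above them in B16-F10, and the NT dots of Cd163 lie below the Base dots in 7 models.

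The balance of the classes was described as the mean log2(TPM + 1) of the 4 resident-like markers minus that of the 5 general markers in each tumor. No p-value is given for this score, since its members were chosen with results of these data known. From Base to NT the difference fell in all 12 models, by 0.55 in the mean (SD over models 0.47), with a pooled SD between tumors of a group of 0.39. The groups did not overlap in B16-F10, BNL, EMT6 and MBT2. In EMT6 the score was -0.24, -0.76 and 0.36 in Base and -2.26, -2.21 and -1.04 in NT tumors, the largest change of any model (-1.62). In BNL it moved from -0.85, -0.97 and -0.48 to -1.84, -1.94 and -2.11. The routes differed: in EMT6 the resident-like mean changed by -1.76 and the general mean by -0.14, whereas in BNL the general mean changed by 1.25 and the resident-like mean by 0.05. Over models the resident-like mean changed by -0.57 and the general mean by -0.02.

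After LEN the difference had no common direction. It changed by -0.08 in the mean (SD over models 0.37), with 7 models lower and 5 higher. This mean moved by more than 1.5 times with a pseudocount of 0.1 (-0.14), without BNL (-0.05), EMT6 (-0.03), KLN205 (-0.14) or MBT2 (-0.03), and without 1 NT tumor of CT26.WT (-0.03), of RAG (-0.05) or of EMT6 (-0.05). The resident-like mean changed by -0.44 and the general mean by -0.36. In MBT2 the score was lower in every LEN tumor than in every NT tumor (change -0.65), as in EMT6 (-0.57), and in KLN205 it was higher in every LEN tumor (0.58). The change in MBT2 came with Lyve1, which was at 8.95, 21.6 and 13.3 TPM in NT and 1.73, 1.23 and 1.87 TPM in LEN tumors. That of KLN205 came with C1qa at 160, 174 and 178 TPM in NT and 108, 84.1 and 95.0 TPM in LEN tumors, while Folr2 was at 5.93, 3.87 and 7.84 TPM and 8.10, 4.13 and 4.95 TPM.

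**Figure D5:**
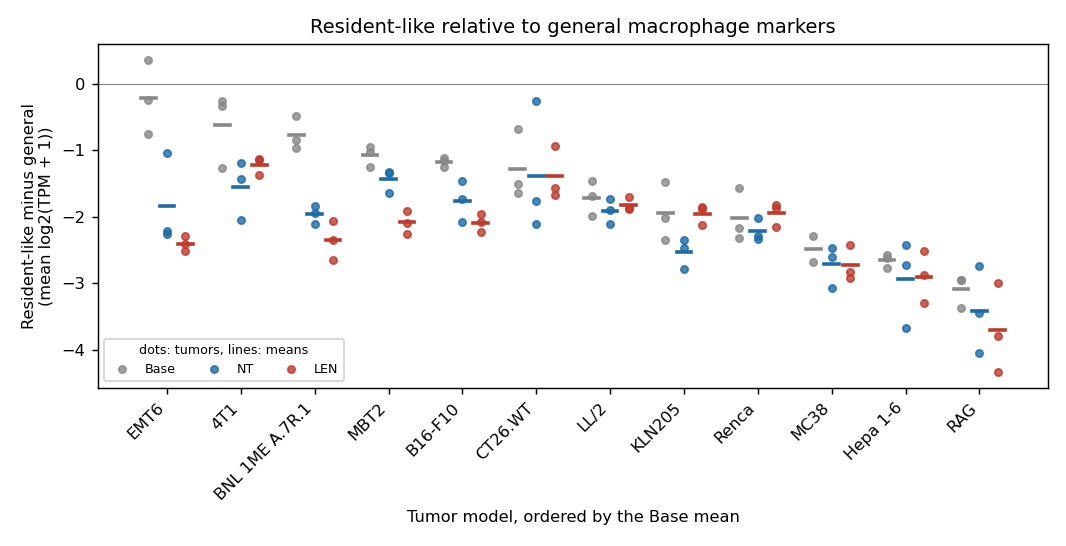
Mean log2(TPM + 1) of the resident-like markers minus that of the general markers in each tumor (dots) and its group mean (lines), by model and group, ordered by the Base mean. NT means lie below Base means in all 12 models, most in EMT6 and BNL, while LEN means lie on either side of NT means.

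Other genes of resident-like macrophages were examined as a list of 20, of which 15 could be tested after LEN. Of these, 10 fell, 1 rose and 4 were not called, where 9.87% of all genes tested fell and 13.7% rose. The median change was -0.26, beside a median of -0.0019 over all genes tested. Selenop, a selenium transport protein (-0.75, adjusted p = 3.71e-11), and the sialoadhesin gene Siglec1 (-0.73, adjusted p = 5.81e-10) fell most, and the lectin gene Cd209f rose (0.29, adjusted p = 0.0133). Between Base and NT, 8 of 16 fell and 1 rose, with a median of -0.23, where 11.5% of all genes tested fell and 17.0% rose. Of the 15 pan-macrophage genes, 4 fell and 1 rose after LEN. The fractalkine receptor gene Cx3cr1 fell by 0.97 (adjusted p = 4.07e-12) and C1qc by 0.44 (adjusted p = 5.79e-07), whereas the lipopolysaccharide co-receptor gene Cd14 rose by 0.38 (adjusted p = 4.52e-06). Cd68, which encodes a lysosomal protein of macrophages, changed by 0.05 and was not called (adjusted p = 0.678). Between Base and NT, 7 of these 15 fell and 1 rose.

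Genes of other myeloid states mostly rose after LEN, where 13.7% of all genes tested rose and 9.87% fell. Of 12 genes of lipid-handling and SPP1-type macrophages, 7 rose and 2 fell (median 0.28). The elastase gene Mmp12 rose (0.81, adjusted p = 2.61e-07), and the apolipoprotein gene Apoe (-0.33, adjusted p = 0.000569) and the lipid receptor gene Trem2 (-0.18, adjusted p = 0.0237) fell. Of 8 monocyte genes, 6 rose, with Ly6c2 at 1.02 (adjusted p = 3.02e-07) and F10 at 0.92 (adjusted p = 1.82e-10), each higher in 12 of 12 models. Of 6 neutrophil genes, 5 rose, with S100a9 at 0.90 (adjusted p = 1.67e-05) and S100a8 at 0.73 (adjusted p = 0.000331). Ptprc changed by 0.05 (adjusted p = 0.760), and 1 of the 4 pan-leukocyte genes rose (Cd53, 0.26, adjusted p = 0.0184). Between Base and NT, 7 of the 8 monocyte genes and all 4 pan-leukocyte genes fell, Ly6c2 by 0.81 (adjusted p = 0.000124) and Ptprc by 0.35 (adjusted p = 0.00110).

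Of 6 other genes of colony-stimulating factors, their receptors and Il34, 3 rose after LEN. They were Csf3, the granulocyte growth factor (0.30, adjusted p = 3.80e-05), its receptor gene Csf3r (0.37, adjusted p = 0.000592) and Csf2rb, a receptor chain for Csf2 (0.24, adjusted p = 0.00368). Il34, the alternative ligand of Csf1r, changed by -0.08 and was not called (adjusted p = 0.396). Of 8 other phagocytosis receptors and bridging ligands, 2 rose, with Mfge8 at 0.18 (adjusted p = 4.24e-05) and Itgav at 0.13 (adjusted p = 2.61e-05), and the Mertk ligand gene Pros1 fell by 0.23 (adjusted p = 0.00202). Over all genes tested after LEN, 13.7% rose and 9.87% fell. Of 11 further complement genes, 6 rose, in contrast to the fall of the C1q chains. C3, the central complement component, was at 0.83 (adjusted p = 5.67e-07) and the C1 inhibitor gene Serping1 at 0.52 (adjusted p = 0.000469).

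Vascular genes fell after LEN in the mean over models, where 9.87% of all genes tested fell and 13.7% rose. Cdh5 and Emcn were lower also in B16-F10 and Hepa 1-6, where the means of the macrophage markers were higher. In Hepa 1-6 alone no macrophage marker was called. All 6 blood endothelial genes fell (median -0.79), with Cdh5 at -1.17 (adjusted p = 2.41e-21) and Emcn at -1.0 (adjusted p = 9.38e-17), each lower in 12 of 12 models. In B16-F10 Cdh5 changed by -1.26 and Csf1r by 1.65. In Hepa 1-6 Cdh5 changed by -0.93, the largest fall of the 6 genes there, and Csf1r by 0.64. Tie1 (-0.56), Emcn (-0.45), Kdr (-0.33) and Pecam1 (-0.16) were also lower in Hepa 1-6, and Plvap was higher (0.16). In Hepa 1-6 the summed level of the blood endothelial genes overlapped. It was 55.0, 65.3 and 81.6 TPM in NT and 61.45, 66.4 and 39.1 TPM in LEN tumors. In B16-F10 it did not overlap, at 51.1, 39.2 and 47.9 TPM in NT and 23.3, 24.9 and 22.3 TPM in LEN. Over all models it was 35 to 162 TPM in NT and 17.4 to 75.2 TPM in LEN tumors. Of 4 lymphatic endothelial genes tested, Flt4 fell (-0.74, adjusted p = 1.14e-20) and Pdpn rose (0.35, adjusted p = 0.000216). Prox1, the defining factor of lymphatic endothelium, had a median of 0.1 TPM in Base, 0.0750 TPM in NT and 0.05 TPM in LEN tumors and was not called (-0.06, adjusted p = 0.289). Dendritic cell genes gave 2 higher of 5 (Ccr7 at 0.49, adjusted p = 1.97e-06, and Cd209a at 0.22, adjusted p = 0.0353). The 4 skeletal muscle genes rose (median 1.14, Ckm at 1.15, adjusted p = 4.87e-06, and Acta1 at 1.15, adjusted p = 0.000689), as did Adipoq (0.54, adjusted p = 0.000333). Of 4 fibroblast genes, Dcn rose (0.36, adjusted p = 0.00551) and Col1a1 fell (-0.29, adjusted p = 0.0230), and neither of the 2 epidermal genes tested was called. The part of these cell types in the changes of the macrophage markers was not tested, except that with the muscle and adipocyte levels as covariates the members other than Lyve1 that fell after LEN remained lower.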

How the data were processed

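RNA-seq of 107 mouse tumors was analyzed. The authors trimmed reads with Trimmomatic 0.36, mapped them with STAR 2.5.2b (mm10, Ensembl 88) and estimated expression with RSEM 1.2.31, and they deposited the result as TPM for each gene and tumor. Sequencing used NovaSeq and NextSeq instruments, and which one served a tumor is not given in the sources used here. TPM keeps no depth, so counting precision is unknown.

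Groups were taken from the labels. Values were analyzed as log2(TPM + 1) with limma 3.58.1 (R 4.3.3), using linear models and moderated variances that follow a trend with level. Genes entered a fit where their mean over its tumors reached 1 TPM, with Benjamini-Hochberg adjustment over all genes and a threshold of 0.05. The 72 day 8 tumors were fitted together as 24 groups, as were the 71 untreated tumors, for the mean contrast over models and the F test of 11 contrasts. Base models were also fitted alone, as were LEN against NT and NT against Base within each model. Both comparisons use the NT tumors. Positions are from GENCODE M21 (GRCm38) and upstream windows from RefSeq (GRCm38.p6). The tests were checked on simulated data. Figures and summaries used Python 3.11.15, pandas 2.3.3 and matplotlib 3.10.9.

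The members, lists and tests were chosen with earlier results of these data known. Besides the members, the text names the 5 genes most correlated with each class, 8 marker genes, and, from each list, the 2 lowest and 2 highest mean LEN changes among called genes, some of which are not reported here. Csf2rb, Il34, Gm26917, Kdr, Tie1, Pecam1 and Plvap were named after their values were seen. The alternatives tried were dropping the minimum level or raising it to 5 TPM, a pseudocount of 0.1, upper-quartile and protein-coding scaling, no mean-variance trend, the replicate number as a block, and leaving out each tumor or model. Muscle and adipocyte covariates were added after seeing the data. No pair of tumors shared more than 2.91% of identical values above 0.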

Additional observations from a re-analysis of the deposited data

Results flagged for a closer look

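The change of most members differed between the 12 models in both comparisons, by limma's F test of 11 contrasts with adjustment over all genes tested. For LEN against NT, the adjusted p was 3.88e-11 for C1qb, 6.46e-11 for C1qa, 8.07e-11 for Csf1r, 7.55e-09 for Adgre1 and 9.99e-05 for Mertk among the general markers. It was 1.39e-05 for Folr2, 2.33e-05 for Mrc1 and 0.00676 for Cd163 among the resident-like markers, and 3.54e-06 for Csf1. For NT against Base, it was 7.59e-10 for C1qa, 2.71e-09 for C1qb, 2.03e-08 for Csf1r, 3.80e-07 for Adgre1 and 3.94e-07 for Mertk, and 6.87e-06 for Folr2, 6.52e-05 for Mrc1, 0.00503 for Cd163 and 3.32e-07 for Csf1. Both sets of values share the NT tumors. Groups of 3 tumors are too small for the test of single outlying tumors.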

How the results depend on the processing

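The counts of members that fell or differed between models after LEN, and the single-model LEN counts, stayed within 1.5 times of the main counts under all alternatives run. The single-model fits of NT against Base were run in the main setting only. The difference between the classes kept its sign, at -0.14 to -0.03 after LEN and -0.68 to -0.45 between Base and NT. No member rose after LEN in the main setting, and 1 did (Csf1) with a pseudocount of 0.1, a mean TPM of at least 5, upper-quartile scaling, protein-coding scaling, the replicate block, and without 4T1, BNL, CT26.WT, KLN205, MC38 or Renca. Leaving out single tumors gave 0 to 1. Between Base and NT, 5 members fell with upper-quartile scaling and 5 with protein-coding scaling, in place of 3, and 1 fell with the muscle and adipocyte covariates. The cause of these shifts was not tested.

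The mean changes of the general markers and Csf1 between Base and NT, none of them called in the main setting or with the sign turned, changed sign in some settings. With upper-quartile scaling C1qb was at -0.0376. With protein-coding scaling C1qa was at -0.00257 and C1qb at -0.0479. With the covariates Adgre1 was at 0.0242. Without 4T1, C1qa was at -0.00143 and C1qb at -0.0326. Without B16-F10, Adgre1 was at 0.0401, Csf1r at 0.0177 and Mertk at 0.00583. Without BNL, C1qa was at -0.0738 and C1qb at -0.115. Without EMT6, C1qb was at -0.00609 and Mertk at 0.0457. Without Hepa 1-6, Adgre1 was at 0.0248, Csf1r at 0.0113 and Mertk at 0.0383. Without MBT2, C1qa was at -0.000326 and C1qb at -0.0516. C1qb was at -0.0421 without KLN205 and -0.000988 without RAG, and Csf1 at 0.00347 without LL/2. Leaving out single tumors put C1qb between -0.00569 and 0.0340.

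Replicate numbers did not pair the tumors. Deviations of tumors with the same number correlated at -0.080 to 0.078 between LEN and NT (20 pairs) and at -0.146 to 0.101 between NT and Base (25 pairs). With the replicate block, 8 members still fell and 1 rose after LEN, and 3 fell between Base and NT. The unknown depth limits what can be said of the lowest values, such as Lyve1 under 1 TPM.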
